A study of Caenorhabditis elegans with 9 samples.

Results

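The 10 genes described here encode parts of the myofilaments of body wall and pharynx muscle in Caenorhabditis elegans. They were taken from the 46986 genes of the deposited FPKM table by gene name: the myosin heavy chain genes unc-54, myo-3, myo-1 and myo-2, the paramyosin gene unc-15, the twitchin gene unc-22, the tropomyosin gene lev-11, and the troponin genes unc-27, mup-2 and tnc-2. Of these, myo-1, myo-2 and tnc-2 are the 3 pharynx members and are compared with the 7 others. RNA came from whole worms and gave 9 libraries in 3 groups of 3. Control worms form the group OP, worms under high fat the group HFD, and worms given the plant flavanone farrerol under high fat the group FA. The study's title says that fat accumulation was induced with citrate, and asks whether farrerol lowers it through the transcription factor DAF-16. Strain, genotype, age, dose and duration were not given in the sources at hand, and a difference in age between the groups cannot be told apart from the treatment.

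A myofilament is built from thick filaments of myosin around a core of paramyosin, and thin filaments of actin that carry tropomyosin and the troponin complex. Calcium binding to troponin C shifts tropomyosin on the actin filament and lets myosin heads pull. Body wall muscle moves the worm, and the pharynx, a separate pump of muscle, takes in bacteria. The tissues use different genes for the same parts: body wall thick filaments hold the myosins of unc-54, the major heavy chain, and myo-3, which lies at the filament's centre, while pharynx muscle uses myo-1 and myo-2. Paramyosin and tropomyosin are made in both, so the 7 others do not stand for body wall alone.

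The authors' unit is FPKM, a read level per kilobase of gene that is also scaled for library size. A log2 fold change is a difference of group means of log2(FPKM + 1), and a gene was called at a limma adjusted p under 0.05 over all genes tested. All 10 genes were among the 14730 expressed well enough to be tested. The libraries held 17514542 to 21419867 reads on genes, and each member had at least 1605 reads in every library, so counting error was small beside the spread between libraries. Whether replicates were separate cultures is not stated, and p-values then measure only the spread between these libraries. In RNA from whole worms, a change in the share of muscle in the RNA and a change of expression within muscle cells cannot be told apart.

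The 10 genes spanned a wide range of levels that kept much the same order in every library. The troponin I gene unc-27 was the most abundant, with a mean of 1291 FPKM over the 9 libraries, followed by lev-11 at 1004, unc-54 at 878, mup-2 at 745 and unc-15 at 734 FPKM. The pharynx members came next, with means of 132 FPKM for tnc-2, 90.0 for myo-2 and 87.4 for myo-1. They were followed by myo-3 at 52.5 and unc-22, which encodes the giant kinase protein twitchin, at 18.2 FPKM. The largest step between neighbours in this order, 5.56-fold, lay between unc-15 and tnc-2. All neighbours kept their order in 9 of 9 libraries except mup-2 and unc-15, which kept it in 5, and myo-2 and myo-1, which kept it in 7. Together the 10 genes held 0.418% to 0.646% of all FPKM in a library. The hallmark regulators of the muscles were also present, hlh-1 of body wall muscle with group means of 4.38 to 5.40 FPKM and ceh-22 of pharynx muscle with 1.26 to 2.28 FPKM.

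**Figure D1:**
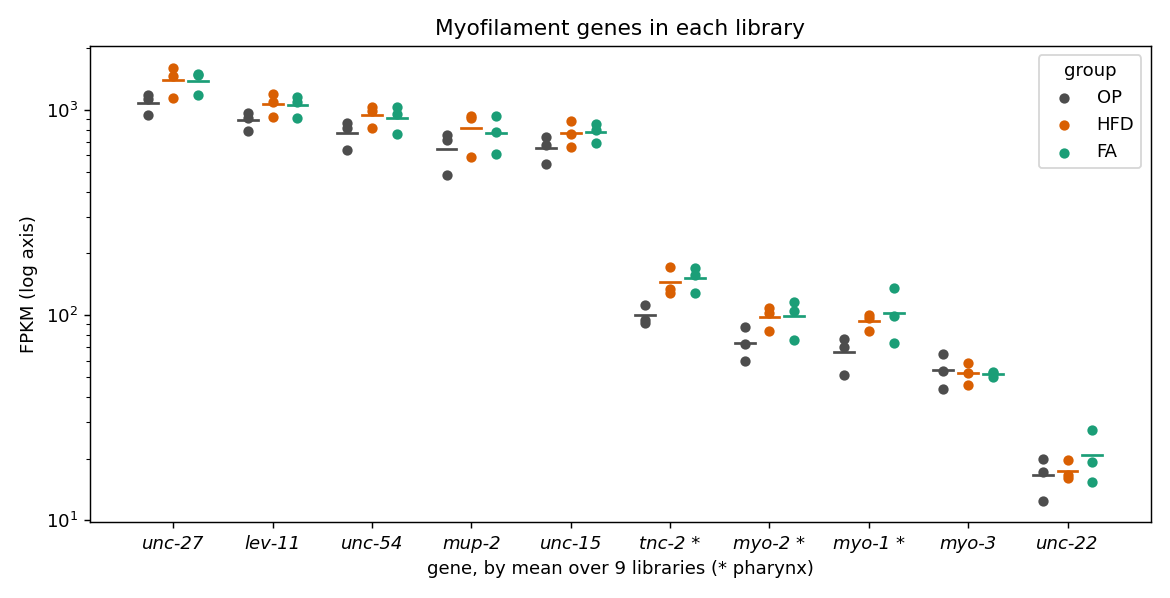
FPKM on a log axis for the 10 myofilament genes, with a point for each library and a bar at each group's mean; the pharynx genes are starred. The pharynx genes sit well under the abundant filament genes, and tnc-2 is lower in all 3 OP libraries than in any HFD or FA library.

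The pharynx members were the ones that differed most from the control. The gene tnc-2 (WBGene00006583, chromosome II, 10466852 to 10468358, WBcel235), which encodes the troponin C of pharynx muscle, had 91.7, 112.5 and 94.9 FPKM in OP replicates 1, 2 and 3. It had 134, 171 and 129 FPKM in the HFD libraries and 128, 170.2 and 157 in the FA libraries. The OP libraries did not overlap those of either other group. The group means were 99.7 ± 11.2 (SD, n = 3) in OP, 145 ± 22.9 in HFD and 152 ± 21.4 in FA. The gene rose in FA against OP (log2 fold change 0.60, SE 0.16, limma adjusted p = 0.0307). Against OP the HFD difference was nearly as large (0.53, SE 0.16) but did not pass (limma adjusted p = 0.0762).

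The call of tnc-2 in FA against OP was lost without any 1 OP library, FA replicate 2 or FA replicate 3 (limma adjusted p = 0.057 to 0.108). It was also lost with no filter on low values (0.0594), with library weights (0.0777), and with all libraries scaled to an equal FPKM sum (0.0807). Part of tnc-2, 157 of its 819 exon bases, lies opposite exons of the lectin gene clec-143 on the other strand. How strand was used in counting is not given in the sources, so reads there could belong to either, though clec-143 averaged 4.3 FPKM.

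The pharynx myosin genes had differences of like size that did not pass. The gene myo-1 (WBGene00002348, chromosome I, 7258946 to 7267057) had 69.8, 76.9 and 50.8 FPKM in the OP libraries, 96.997, 100.5 and 84.1 in HFD, and 73.5, 98.8 and 135 in FA. All HFD libraries lay above all OP libraries, whereas FA replicate 1 lay among the OP libraries and FA replicate 3 above all others. Its log2 fold change was 0.52 in HFD against OP (SE 0.22, limma adjusted p = 0.196) and 0.61 in FA against OP (SE 0.22, limma adjusted p = 0.0962).

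The gene myo-2 (WBGene00003514, chromosome X, 12468061 to 12475348), the other pharynx heavy chain, had 72.2, 87.5 and 59.6 FPKM in OP, 108, 103 and 83.3 in HFD, and 76.0, 105 and 116 in FA. Both high-fat groups overlapped OP through a single library each, HFD replicate 3 and FA replicate 1, which lay under OP replicate 2. The log2 fold change was 0.42 in HFD against OP (95% interval -0.0023 to 0.85, limma adjusted p = 0.231) and 0.43 in FA against OP (0.00012 to 0.85, limma adjusted p = 0.181). Without FA replicate 1, all 3 pharynx members were called in FA against OP, with log2 fold changes of 0.60 to 0.82 and limma adjusted p of 0.0154 to 0.04996. Of all genes, 17.4% were called there. Without FA replicate 3, 0 members were called, beside 9.65% of all genes, and myo-1 stood at 0.39 and myo-2 at 0.30. Library weights gave 0.33 for myo-1 and 0.16 for myo-2 in FA, and 0.26 for myo-2 in HFD against OP.

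Among the 10 members, 0 were called in HFD against OP by limma and 0 by voom on recovered reads. Of all genes tested, 7.35% were called in that comparison, 2.74% as higher and 4.62% as lower. At an unadjusted p under 0.05 there were 2 members, tnc-2 and myo-1, beside 21.9% of all genes, or 9.05% counting only those higher. The same 2 were higher with no overlap between the groups, beside 12.8% of all genes. In FA against OP 1 member was called, beside 14.6% of all genes, 4.61% as higher and 9.96% as lower. There 3 members had an unadjusted p under 0.05, all from the pharynx, beside 27.7% of all genes, and 1 was higher without overlap, beside 13.8% of all genes. Both comparisons use the same OP libraries, so their values are not independent of each other.

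The other thick filament genes did not pass, with differences near 0 for myo-3 and of 0.24 to 0.30 for unc-54 and unc-15. The gene unc-54 (WBGene00006789, chromosome I, 14855901 to 14863482) had 861, 814 and 637 FPKM in the OP libraries, 1037, 988 and 814 in HFD, and 952, 1036 and 759 in FA. Its groups overlapped, since HFD replicate 3 and FA replicate 3 lay within the range of OP. The log2 fold change was 0.30 in HFD against OP, with a 95% interval from -0.13 to 0.73, and 0.25 in FA against OP, with an interval from -0.18 to 0.67. Without OP replicate 3 the values were 0.17 and 0.12, and in FA 0.15 without FA replicate 2 and 0.38 without FA replicate 3.

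The other body wall heavy chain gene, myo-3 (WBGene00003515, chromosome V, 12226817 to 12234343), had 64.4, 53.2 and 43.7 FPKM in OP, 58.7, 52.3 and 45.7 in HFD, and 51.99, 52.6 and 49.9 in FA. The ranges of all 3 groups overlapped, and the FA libraries varied by only 2.68% of their mean. Its differences from OP were -0.03 in HFD and -0.04 in FA on the log2 scale, with 95% intervals from -0.37 to 0.31 and from -0.38 to 0.30; the sign of both turned when libraries were centred on the median gene (0.04 each) or OP replicate 1 was left out (0.11 and 0.09), and that of HFD also without HFD replicate 3 (0.06).

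Paramyosin, the rod protein of the filament core, is encoded by unc-15 (WBGene00006754, chromosome I, 7376604 to 7383197), which had 735, 673 and 543 FPKM in OP, 886, 762 and 657 in HFD, and 802, 853 and 691 in FA. As with unc-54, OP replicate 3 was the lowest of all libraries and the groups overlapped. The log2 fold changes were 0.24 in HFD and 0.27 in FA against OP, with limma adjusted p of 0.505 and 0.38. Without OP replicate 3 they were 0.12 and 0.15, and 0.13 in HFD without HFD replicate 1.

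Twitchin, which lies along the thick filament and regulates contraction, is encoded by unc-22 (WBGene00006759, chromosome IV, 11972697 to 12011007). It had 19.95, 17.2 and 12.5 FPKM in OP, 19.7, 16.6 and 16.1 in HFD, and 19.3, 15.4 and 27.4 in FA. The groups overlapped, and FA replicate 3 stood above the other libraries. The log2 fold changes against OP were 0.09 in HFD and 0.29 in FA, with limma adjusted p of 0.859 and 0.435; without OP replicate 3 they were -0.09 and 0.11. The FA difference was 0.08 without FA replicate 3 and 0.47 without FA replicate 2, and that in HFD ranged up to 0.23, without OP replicate 1. Other annotated genes overlap 385 of its 23368 exon bases, and reads there could belong to either.

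Thin filament genes gave a like picture. The tropomyosin gene lev-11 (WBGene00002978, chromosome I, 14621169 to 14631094), annotated with 20 transcripts that the table sums into a single value, had 914, 964 and 792 FPKM in OP. It had 1090.4, 1193 and 918 in HFD and 1093, 1154 and 918 in FA, and the lowest library of each high-fat group fell within the OP range. The log2 fold changes were 0.26 in HFD and 0.24 in FA against OP, with limma adjusted p of 0.457 and 0.423, and the FA value was 0.16 without OP replicate 3.

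The body wall troponin I gene unc-27 (WBGene00006764, chromosome X, 8789456 to 8790621), whose product holds the thin filament in the resting state, had 1182, 1127 and 942 FPKM in OP, 1463, 1607 and 1143 in HFD, and 1495, 1476 and 1179.7 in FA. The lowest HFD and FA libraries, replicate 3 of each, lay under the highest OP library. Its log2 fold changes, 0.37 in HFD and 0.35 in FA against OP, were the largest among the 7 others, with limma adjusted p of 0.326 and 0.292.

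The troponin T gene mup-2 (WBGene00003495, chromosome X, 6408471 to 6410227), whose product ties the complex to tropomyosin, had 752, 710.2 and 482 FPKM in OP, 912, 938 and 588 in HFD, and 782, 933 and 608 in FA. Replicate 3 was the lowest library in each group, and the groups overlapped. Its SD in OP was 22.4% of the mean, and the log2 fold changes of 0.32 in HFD and 0.26 in FA against OP had limma adjusted p of 0.521 and 0.56. Without OP replicate 3 they were 0.12 and 0.06. Leaving out HFD replicate 2 gave 0.20 in HFD, and leaving out HFD replicate 3 gave 0.54; the FA value was 0.12 without FA replicate 2 and 0.42 without FA replicate 3.

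**Figure D2:**
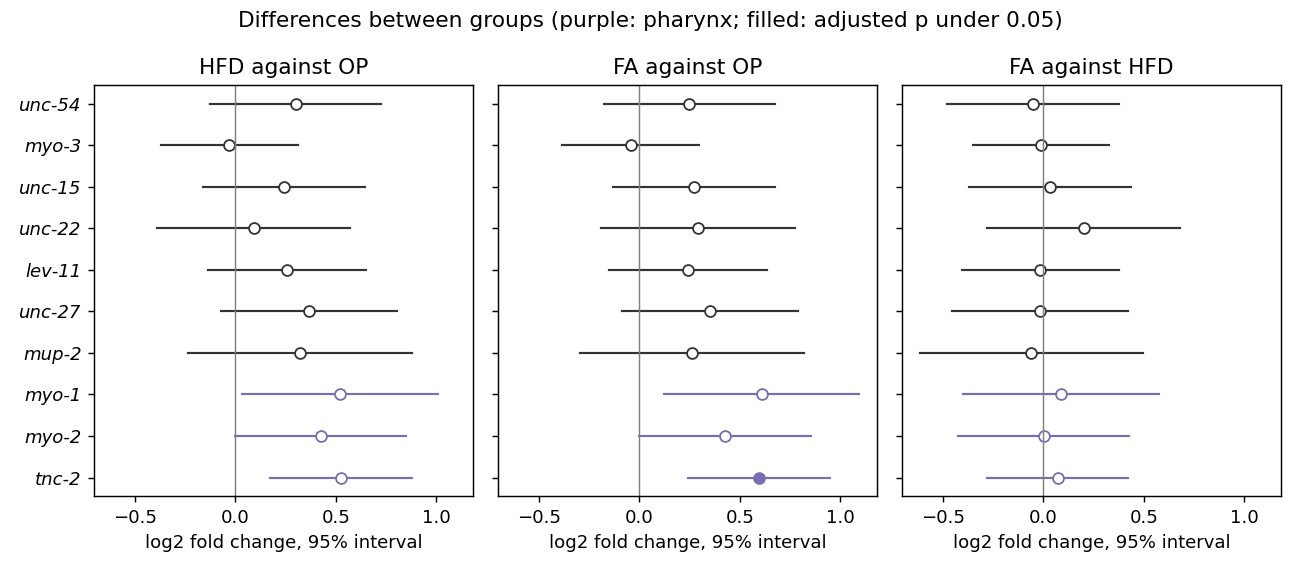
Log2 fold change of each of the 10 genes in the 3 comparisons, with its 95% interval from limma; purple marks the pharynx genes and a filled point an adjusted p under 0.05. Only tnc-2 in FA against OP is filled, and in FA against HFD all intervals span 0.

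In the comparison of pharynx with the rest, the 3 pharynx members had a median log2 fold change of 0.52 in HFD against OP, with values from 0.42 to 0.53, and the 7 others a median of 0.26, with values from -0.03 to 0.37. The 2 sets of values did not overlap. The median of all 14730 genes was 0.01. In FA against OP the medians were 0.60 and 0.26, beside 0.02 for all genes, and again the ranges were apart, 0.43 to 0.61 for the pharynx and -0.04 to 0.35 for the others. The ranges overlapped with some single libraries left out. In HFD against OP, mup-2 stood at 0.44 and myo-2 at 0.42 without OP replicate 1. Without HFD replicate 3 they stood at 0.539 and 0.535. In FA against OP, unc-22 stood at 0.431 and myo-2 at 0.427 without OP replicate 1. Without FA replicate 2 these 2 genes stood at 0.47 and 0.38. Without FA replicate 3, unc-27 stood at 0.46 and myo-2 at 0.30 in FA against OP. With library weights, unc-27 stood at 0.35 in HFD and 0.36 in FA, above myo-2 at 0.26 and 0.16. With all libraries, 9 of the 10 members had a positive value in each of these comparisons, all but myo-3, beside 51.9% and 52.5% of all genes.

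Within a library the gap between the classes does not depend on how libraries are scaled, though a pattern by gene length in a library can still enter it. The mean log2 FPKM of the pharynx members minus that of the others was -2.18, -1.84 and -1.94 in OP replicates 1 to 3, -1.83, -1.66 and -1.66 in HFD, and -2.05, -1.65 and -1.31 in FA. All HFD values lay above all OP values, though HFD replicate 1 and OP replicate 2 were almost equal. The FA libraries covered both, with FA replicate 1 among the OP values and FA replicate 3 above all others. Without FA replicate 3, the difference of class medians in FA against OP was 0.03 in place of 0.33. Without OP replicate 1 it was 0.17 in FA and 0.13 in place of 0.26 in HFD against OP, and with library weights 0.12 and 0.17.

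Ratios to unc-54 in the same library gave the balance between filament genes. The level of myo-3 was 7.48%, 6.53% and 6.85% of that of unc-54 in the OP libraries, 5.66%, 5.29% and 5.62% in HFD, and 5.46%, 5.08% and 6.58% in FA. The HFD ratios were all lower than the OP ratios, by 0.33 on the log2 scale, while FA replicate 3 lay within the OP range. An exact two-sided permutation test gave p = 0.1, the smallest that 3 libraries against 3 allow, and 1 after Benjamini-Hochberg adjustment over 27 ratio tests. This was the only 1 of the 27 tests, 9 genes in 3 comparisons, in which the groups did not overlap.

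Relative to unc-54, myo-1 was at 8.51% ± 0.814 (SD, n = 3) in OP, 9.95% ± 0.522 in HFD and 11.7% ± 5.39 in FA, and myo-2 at 9.50% ± 1.19, 10.3% ± 0.088 and 11.1% ± 3.78. The ratio of tnc-2 was 13.1% ± 2.21, 15.3% ± 2.22 and 16.8% ± 3.59. For all 3 the groups overlapped, and the wide FA spread came from FA replicate 3, where myo-1 reached 17.8%. The ratios of unc-15, lev-11, unc-27 and mup-2 shifted by at most 0.10 on the log2 scale in any comparison, with exact permutation p of 0.2 to 1.

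**Figure D3:**
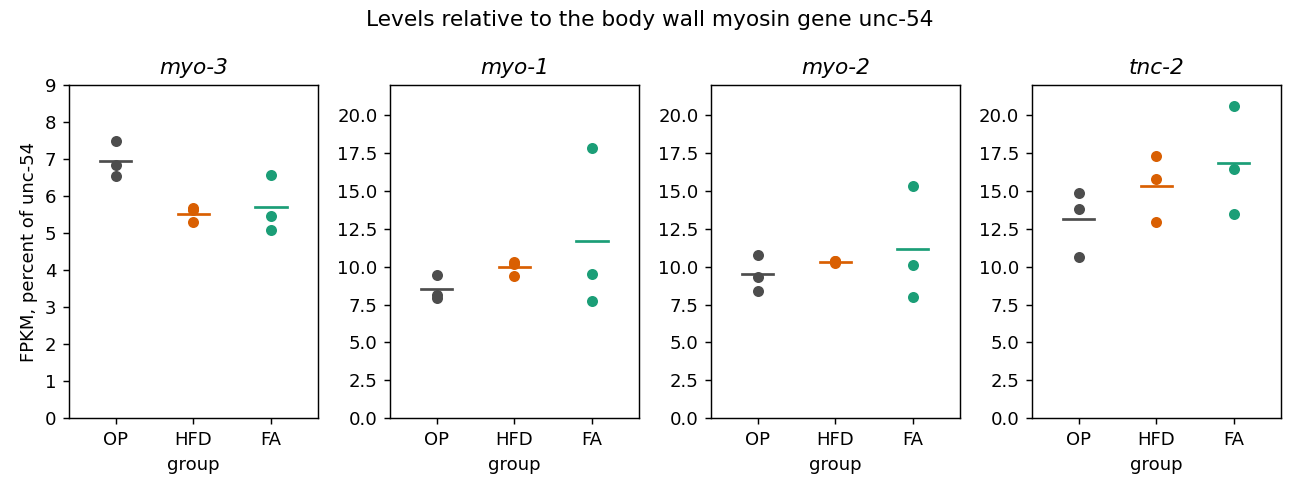
FPKM of myo-3, myo-1, myo-2 and tnc-2 as a percent of unc-54 in the same library, with a point for each library and a bar at the group mean; the axes start at 0 and myo-3 has its own scale. The 3 HFD points of myo-3 lie under its 3 OP points, and FA replicate 3 is the highest point for the pharynx genes.

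The libraries of a group moved many members together. In OP replicate 3 all members but tnc-2, 9 of 10, had their lowest value of all 9 libraries, and in HFD all 10 were lowest in replicate 3. In FA the members split: replicate 3 was the lowest FA library for 6 of the 7 others and the highest for unc-22, myo-1 and myo-2, while replicate 1 was the lowest for all 3 pharynx members. Relative to its mean over the 9 libraries, myo-1 stood at 0.68 and unc-22 at 0.62 on the log2 scale in FA replicate 3, against -0.19 for unc-54.

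In FA replicate 3 long genes in general were high. The 86 tested genes longer than 8000 bases had a median of 0.36 there, relative to each gene's mean over the libraries on the log2 scale, and the 1588 genes of up to 500 bases a median of -0.22. In OP replicate 3 the longest class stood at -0.25, and in the other 7 libraries between -0.12 and 0.09. Gene lengths are 23368 bases for unc-22, 6457 for myo-1, 6334 for myo-2 and 6204 for unc-54. The summed FPKM of all genes was also lowest in FA replicate 3, 748858 against 861615 to 1083160 elsewhere. With the trend on gene length removed in each library, the FA against OP difference of unc-22 went from 0.29 to 0.06 and that of myo-1 from 0.61 to 0.54, and tnc-2 was again called (0.59, limma adjusted p = 0.0241). That of myo-2 went from 0.43 to 0.36, under unc-27 at 0.37, so the ranges of the classes overlapped in FA against OP. In HFD against OP they stayed apart, with myo-2 at 0.43 and unc-27 at 0.35. The difference of class medians went from 0.26 to 0.21 in HFD against OP and from 0.33 to 0.29 in FA against OP. In FA against HFD it went from 0.09 to 0.04. Why FA replicate 3 stood apart was not tested.

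**Figure D4:**
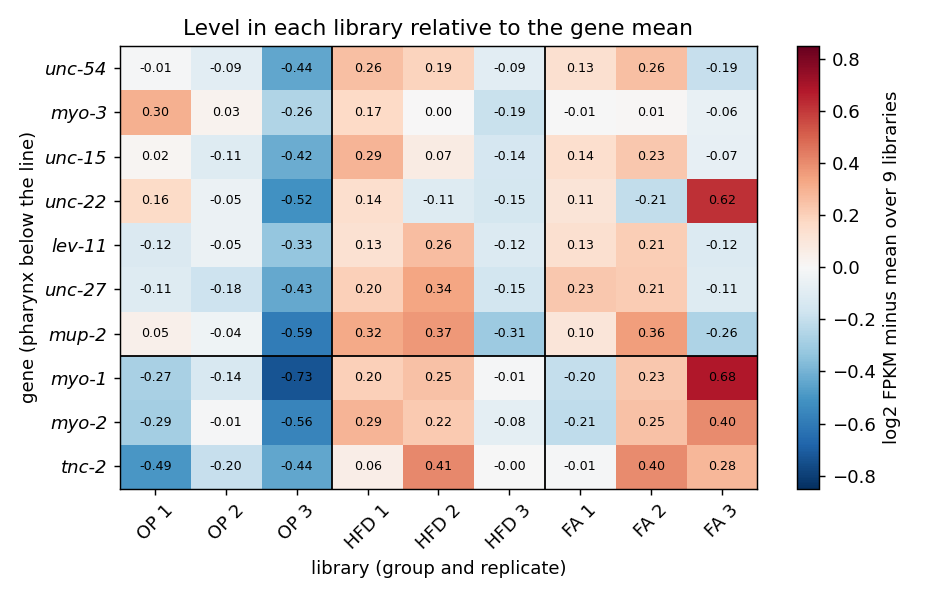
Level of each gene in each library as log2 FPKM minus the gene's mean over the 9 libraries, printed in each cell and coloured from blue (low) to red (high); columns are libraries by group and the pharynx genes are the bottom rows. OP replicate 3 is low in all rows, and FA replicate 3 is high for unc-22 and the pharynx genes but low for the 6 other rows.

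Farrerol under high fat was compared as FA against HFD. By limma 0 members were called, 0 had an unadjusted p under 0.05 and 0 were called by voom; of all genes, 0.00679% were called and 2.5% had an unadjusted p under 0.05. The log2 differences ran from -0.06 for mup-2 to 0.20 for unc-22, with a median of -0.01 over the 10 members and -0.0048 over all genes. Of the members 5 were positive, beside 48.6% of all genes. The intervals set how large a missed difference could be. That of myo-3 ran from -0.35 to 0.33, that of tnc-2 from -0.28 to 0.42, that of unc-54 from -0.48 to 0.37, and the widest, that of mup-2, from -0.62 to 0.50. All members overlapped between FA and HFD, whereas 5.1% of all genes did not, 1.83% higher and 3.27% lower in FA.

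Partner genes of the filaments, taken from lists of known muscle genes, were read from the same fit. The pharynx thin filament list held the troponin T gene tnt-4 and the troponin I gene tni-4, partners of tnc-2. Levels of tnt-4 were 80.5, 89.5 and 64.7 FPKM in OP, 141, 154 and 109.5 in HFD, and 122.5, 127 and 189 in FA. All libraries of both high-fat groups lay above all of OP. The gene rose in HFD against OP (log2 fold change 0.78, SE 0.20, limma adjusted p = 0.0449) and in FA against OP (0.88, SE 0.20, limma adjusted p = 0.0162). The HFD call was lost without any 1 OP library or without HFD replicate 1 or 2 (limma adjusted p up to 0.166), and the FA call without OP replicate 3 (0.0709); with equal FPKM sums both were lost (0.133 and 0.0559), and the HFD call also with no filter on low values (0.106), quantile normalization (0.0829) or scaling to summed reads (0.0873).

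For tni-4 the values were 159.7, 179 and 147 FPKM in OP, 213, 263 and 188 in HFD, and 195, 225 and 295 in FA, with no overlap between OP and either other group. Its log2 fold changes of 0.44 in HFD and 0.54 in FA against OP did not pass (limma adjusted p = 0.191 and 0.0779). Like the pharynx myosins, both troponin genes were highest in FA replicate 3. Their lengths are 1366 (tnt-4) and 821 (tni-4) bases. With the trend on gene length removed, tnt-4 stood at 0.80 in HFD and 0.91 in FA against OP. It was called in both (limma adjusted p = 0.0394 and 0.0139). In the same fit tni-4 stood at 0.41 and 0.53 and did not pass (limma adjusted p = 0.239 and 0.0904). Why both genes were highest in FA replicate 3 was not tested. The 3 pharynx regulators pha-4, tbx-2 and ceh-22 had a median of 0.35 in HFD and 0.38 in FA against OP, and 0 passed in either. In all, these 5 pharynx genes had positive differences from OP in both high-fat groups, beside 51.9% and 52.5% of all genes. Of them 1, tnt-4, was called, beside 7.35% of all genes in HFD and 14.6% in FA. The lack of overlap with OP in tnt-4 and tni-4 stood beside 12.8% and 13.8% of all genes higher without overlap.

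Other partner lists had smaller medians than the pharynx thin filament list, which held only 2 genes. Only the list of further thin filament genes is named for body wall, so the other lists do not stand for body wall alone. Of 9 thick filament partners, which include myosin light chains, the myosin chaperone gene unc-45 and the giant protein genes ttn-1 and unc-89, 0 passed in HFD or FA against OP, with medians of 0.09 and 0.19. In HFD against OP 5 of them were positive and 4 negative, and in FA against OP all 9 were positive. The light chain genes mlc-2, mlc-3 and mlc-1 had the largest values in HFD against OP, 0.38, 0.36 and 0.33; mlc-1 and mlc-2 are near-identical copies, so their single values are uncertain. Of 15 further thin filament genes 0 passed in either, with medians of 0.16 and 0.19, and 14 were positive, beside 51.9% and 52.5% of all genes. The body wall troponin I genes tni-1 and tni-3 had 0.47 and 0.34 in HFD and 0.48 and 0.23 in FA against OP. Among the actin genes, which share much of their sequence and are uncertain one by one, act-3 had 0.41 and 0.42, and act-2, the negative gene of the list, -0.31 and -0.34. Among the 21 attachment genes, which anchor filaments to the membrane and matrix, 11 were positive in HFD and 15 in FA against OP, with medians of 0.01 and 0.08. Of the 21, 1 fell and 0 rose, beside 4.62% and 9.96% of all genes called as lower. It was the LIM domain gene lim-8 (log2 fold change -0.66 in HFD, limma adjusted p = 0.0157, and -0.63 in FA, 0.0111). Its HFD call was lost without OP replicate 2 or 3 or HFD replicate 2 or 3 (up to 0.0814) and its FA call without OP replicate 2 (0.0517).

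Of the 20 genes tested for the coupling of excitation to contraction, 18 were positive in HFD and 19 in FA against OP, beside 51.9% and 52.5% of all genes, with medians of 0.17 and 0.27. In HFD 0 passed, beside 7.35% of all genes, and in FA 1 did, beside 14.6%. In FA 1 rose, the muscle potassium channel gene twk-18 (0.50, limma adjusted p = 0.0455); this call was lost in 12 of the 22 alternatives, those without OP replicate 2 or 3, FA replicate 2 or 3 or any 1 HFD library among them, with an adjusted p up to 0.209. The muscle regulators hlh-1 and unc-120 did not pass, with medians of 0.28 and 0.21. Of the 4 other myosin heavy chain genes, 1 was positive in HFD and 2 in FA against OP. Among the 4, the nonmuscle gene nmy-1, which acts in contractile epithelia, was called, beside 4.62% and 9.96% of all genes called as lower. It fell from 60.7 FPKM in OP to 31.9 in HFD and 34.0 in FA, with log2 fold changes of -0.91 and -0.86 (limma adjusted p = 0.0264 and 0.0196). The HFD call was lost without any 1 OP library or without HFD replicate 1 or 2 (up to 0.116), with equal FPKM sums (0.0521) or with no filter (0.0774), and the FA call without OP replicate 1 or 2 (up to 0.0784) or with no filter (0.0531).

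**Figure D5:**
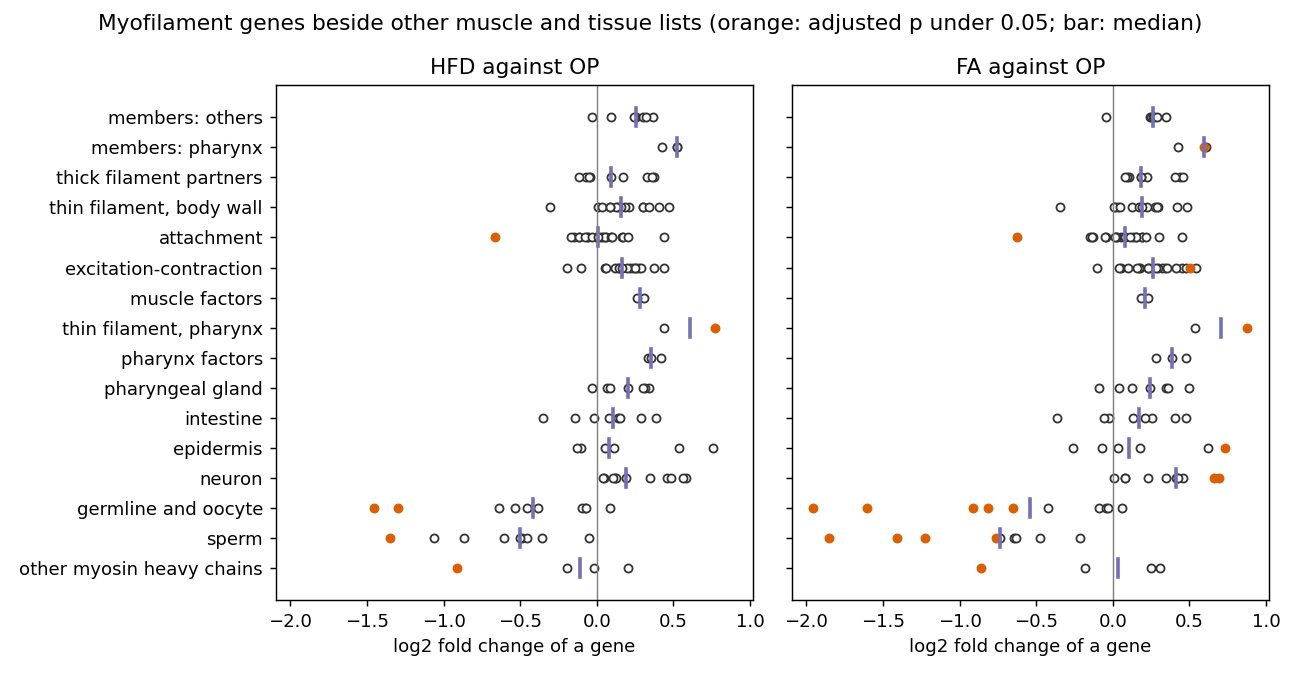
Log2 fold change of each gene in HFD and in FA against OP, by list, with a bar at the list's median; orange points passed an adjusted p of 0.05 and open points did not. The medians of the pharynx members and of the pharynx thin filament genes lie furthest right, single genes of other lists lie further right than the pharynx members, and nearly all germline and sperm genes lie left of 0.

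Markers of other tissues were read in the same way; of all genes, 2.74% were called as higher and 4.62% as lower in HFD against OP, and 4.61% and 9.96% in FA against OP, and 51.9% and 52.5% were positive. Of 11 neuronal genes all were positive in both comparisons, with medians of 0.19 in HFD and 0.41 in FA against OP, and their summed level was 421 to 441 FPKM in OP, 501 to 521 in HFD and 465 to 614 in FA; 0 were called in HFD and 2, rab-3 and sng-1, in FA. Pharyngeal gland genes had medians of 0.20 and 0.24, with 0 of 7 called in either and summed levels of 322 to 365 FPKM in OP, 349 to 473 in HFD and 337 to 492 in FA. For the intestine, medians were 0.11 and 0.17, and 0 of 8 were called, with sums of 1252 to 1421 FPKM in OP, 1213 to 1962 in HFD and 1318 to 2124 in FA. Epidermal genes had medians of 0.08 and 0.11, and 0 and 1 of 6 called, nhr-25 in FA, with sums of 150.4 to 227, 235.4 to 301 and 218 to 296 FPKM. In both comparisons 6 of 7 gland, 5 of 8 intestine and 4 of 6 epidermal genes were positive. In the germline and oocyte list 9 of 10 were negative, with medians of -0.42 and -0.54 and 2 and 5 called as lower, and the sum was 507 to 734 FPKM in OP, 456 to 521 in HFD and 381 to 515 in FA. All 9 sperm genes were negative, with medians of -0.50 and -0.73, 1 and 4 called, and sums of 699 to 900, 390 to 434 and 225 to 558 FPKM. None of these markers was at 0 in all libraries. The part of a change in tissue shares in the myofilament values was not tested.

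The genes with profiles most like those of unc-54 and myo-2 were found among 9894 protein-coding genes with a mean of at least 5 FPKM, by the root mean square difference of centred log2 values over the 9 libraries. For unc-54 they were eif-3.K (0.04), M05D6.5 (0.05), cyn-3 and cyn-1 (0.06 each) and mag-1 (0.06), of which the first encodes a translation initiation factor subunit and the cyn genes cyclophilins. The nearest member was unc-15 (0.06), followed by lev-11 and unc-27 (0.08 each), whereas myo-3 (0.18) and the pharynx members (0.25 to 0.34) lay further off. For myo-2 they were aat-5 (0.10), clik-2 (0.12), clc-5 (0.12), mfsd-6 (0.12) and C05D9.7 (0.12), and the nearest members were the other pharynx genes, myo-1 (0.12) and tnc-2 (0.17). The 9 libraries share their groups and depths, so these distances are a description.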

How the data were processed

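RNA was sequenced from whole worms in 9 libraries. Per the labels' protocols, RNA was extracted with chloroform and libraries were made with an NEBNext Ultra II kit. The authors deposited 1 table of FPKM values per gene, with gene lengths. The genome build is WBcel235, per the submitters' processing notes, and the members' positions match the Ensembl WBcel235 annotation. The sources used here name no aligner, read counter or strand setting. The control columns, named OP50, were assigned by number to the OP samples. Multiplied by gene length, 100% of nonzero values gave whole reads (tolerance 0.01 of a read), 17514542 to 21419867 per library. The table held 0 further sample columns.

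The members and gene lists were chosen with earlier results of these data known. Loci without a gene name were left out. log2(FPKM + 1), with a pseudocount of 1, was tested in limma 3.58.1 (R 4.3.3) with a mean-variance trend. Genes reaching 1 FPKM in 3 or more libraries were kept. The fit took all 9 libraries and 3 group means, two-sided, with Benjamini-Hochberg adjustment over all genes tested. The fit was tested on simulated data with independent noise and changes larger than those of the members. That test does not show how well differences of the members' size are found. Ratios within a library used exact permutation tests in scipy 1.17.1. Named were all members, up to 4 genes per list with the lowest p in HFD against OP, and the 5 nearest profiles to unc-54 and to myo-2. List genes named only as called in FA against OP, and the gene length pattern, were picked after their values were seen. Alternatives were another pseudocount, filters, scalings, voom, a spread from the compared groups, a replicate block, library weights, robust moderation and each library left out. Equal FPKM sums and a gene length correction were added after seeing the data. No sequences were analysed here.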

Additional observations from a re-analysis of the deposited data

How the results depend on the processing

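Of 39 single-gene differences under 22 alternatives each, 766 of 858 values kept direction and side of the threshold, 40 changed sign, 47 lost a call and 5 gained one. The count of called members in HFD against OP went from 0 to 1 (tnc-2) with library weights (adjusted p = 0.0429), beside 22.4% of all genes. It was 0 to 0 with a library left out. In FA against OP it went from 1 to 0 with no filter, library weights or equal FPKM sums. With a library left out it ranged there from 0 to 3, beside 6.06% to 17.4% of all genes. In FA against HFD it was 0 throughout. The pharynx-minus-others difference ranged over libraries left out from 0.134 to 0.296 in HFD against OP, from 0.0305 to 0.468 in FA against OP, and from -0.206 to 0.229 in FA against HFD, where it is 0.09 with all libraries; the lowest of the last 2 came without FA replicate 3.

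The same-numbered libraries are not stated to be paired. Their deviations from the group means correlated at 0.08, -0.02 and 0.15 between HFD and OP, at 0.30, -0.02 and 0.10 between FA and HFD, and at -0.23, -0.19 and -0.10 between FA and OP. With the replicate number as a block, tnc-2 was called in HFD against OP (count 1 in place of 0, adjusted p = 0.0368), beside 5.68% of all genes. With that block the calls of tnt-4 in HFD (0.0781) and twk-18 in FA (0.0667) against OP were lost.

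Sign changes were nearly all in FA against HFD, at values near 0. With library weights they were lev-11 (0.00072), unc-27 (0.0146), myo-1 (-0.0485), myo-2 (-0.0989) and tnc-2 (-0.0061). Those of myo-3 were 0.00088 with scaling to summed reads, 0.0035 with quantile normalization and 0.0013 with median centring. With voom myo-2 was at -0.0048, and with the length trend removed unc-15 was at -0.0026, unc-27 at 0.016 and myo-2 at -0.0708. With a library left out the FA against HFD values ranged from -0.156 to 0.0773 for unc-54, -0.104 to 0.0729 for myo-3, -0.0769 to 0.138 for unc-15, -0.119 to 0.082 for lev-11, -0.157 to 0.095 for unc-27, -0.278 to 0.103 for mup-2, -0.0126 to 0.384 for unc-22, -0.134 to 0.302 for myo-1, -0.124 to 0.18 for myo-2 and -0.017 to 0.196 for tnc-2. Against OP they ranged for myo-3 from -0.169 to 0.107 in HFD and from -0.182 to 0.0935 in FA, 0.0399 and 0.0412 with median centring, and for unc-22 from -0.0885 to 0.23 in HFD. The cause was not tested.

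The number of all genes called in HFD against OP was 1083, and 221 to 3302 over the alternatives (3302 with library weights, 1614 with a spread from the compared groups only, 472 with no filter, 221 without OP replicate 2). In FA against OP it was 2146, 883 to 2939, and its share called higher was 31.6%, 42.0% with median centring and 22.5% with equal FPKM sums. In HFD against OP that share was 37.2%, 46.5% with median centring, 29.02% with equal FPKM sums and 49.8% without OP replicate 2. In FA against HFD 0 to 2 genes were called.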
